A study of Mus musculus with 24 samples.

Results

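Injured kidneys of male and female FVB mice, an inbred strain, were compared through the messenger RNA of cells that had been captured with microbeads against CD31, an adhesion protein of endothelial cells encoded by Pecam1. The comparison holds 6 of the 24 libraries of the series: 3 from males and 3 from females, all after ischemic acute kidney injury and all labelled as kidney endothelial cells. Of the 53392 genes in the files, the 49610 on autosomes were kept, so that genes of the X and Y chromosomes do not enter, and 19246 autosomal genes passed the filter on low counts. Sham-operated mice (3 male and 2 female CD31 isolates) and microdissected proximal tubules of injured mice (3 male and 3 female libraries) are set beside them. No transgene or deletion is named for any group, and age, time after injury and pooling of animals are not given in the sources used here. The labels' protocol names separate mice for each group, and the p-values measure the spread between these few libraries.

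Endothelial cells line the vessels of the kidney, from the fenestrated glomerular capillaries to the peritubular capillaries that lie against the tubules. After ischemia they can display adhesion molecules that bind leukocytes, change their handling of coagulation and alter vessel tone. The proximal tubule, which lies against those capillaries, is the part of the mouse nephron best known for differences between the sexes: testosterone, acting through the androgen receptor, sets the level of many transporters and drug-metabolizing enzymes there.

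The 6 libraries held 42859978 to 54354154 estimated reads, with 7.62 to 12.1% in mitochondrial genes, and Xist and Y-linked genes matched the labelled sex in 6 of 6. All 25 pan-endothelial markers were detected, and their summed level on a scale shared with the tubules was 1045 to 2206 CPM (counts scaled to the library's normalized size) in the 6 isolates against 220.3 to 594 CPM in the injured tubules. Tubule RNA was abundant as well. On the per-length TPM scale, Pecam1 stood at 20.6 to 40.7 TPM in the isolates, while Umod, the uromodulin gene of the thick ascending limb, stood at 3143 to 5030 TPM and Slc34a1, the main phosphate transporter of the proximal tubule, at 378 to 1563 TPM. The libraries are therefore called CD31 isolates here, and each value describes all the cells they held. In such bulk libraries fewer cells of a type and less RNA per cell cannot be told apart.

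Of 17 marker lists, 4 had sums that did not overlap between the sexes, a share near the 24.0% of all single genes tested. Summed over 26 proximal tubule markers, males 1 to 3 had 18083, 15087 and 16965 CPM and females 1 to 3 had 35269.5, 33959 and 28930.4 CPM. The groups do not overlap, and the male mean was 0.511 times the female mean (two-sided exact permutation p = 0.1, the smallest that 3 against 3 allows; 0.425 after Benjamini-Hochberg adjustment over 17 marker lists). None of the 26 markers was without reads in these libraries, and 25 had a negative log2 change. Of the 26, 3 were called lower in males, against 0.831% of all tested genes. Arterial endothelial sums were lower in males, at 290.3, 327 and 349 CPM against 475, 525 and 363 CPM. Collecting duct sums were lower too, at 749, 341 and 719 CPM against 944, 804 and 1528 CPM. Neither list held a called marker, and both have the same exact and adjusted p as the proximal tubule. Of 9 arterial members, 4 had a positive and 5 a negative log2 change. Cxcl12 (-1.41 ± 0.33) had the largest change of them and carried much of the difference in sums. As mean log2 CPM, the arterial difference was -0.14 (exact permutation p = 0.7) and the collecting duct difference -0.64 (exact permutation p = 0.3). The pan-endothelial sums overlapped, at 1117, 2337 and 1496 CPM in males and 1827, 2236 and 1133 CPM in females (exact permutation p = 0.9). Macrophage and dendritic cell markers lay higher in all males, at 107, 90.3 and 132 CPM against 67.5, 67.7 and 64.2 CPM (13 markers, 12 with a positive log2 change, none called; exact permutation p = 0.1, adjusted p = 0.425).

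**Figure D1:**
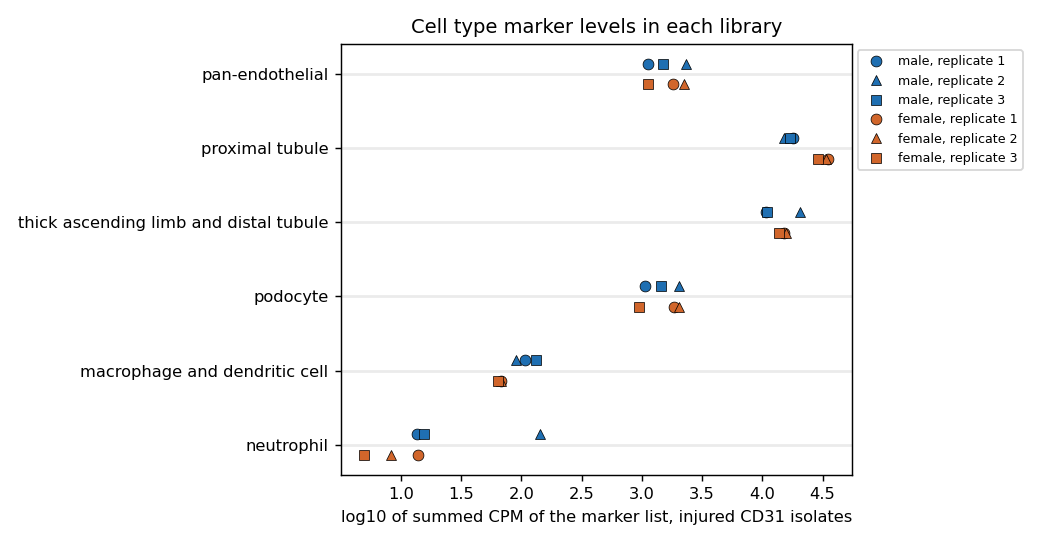
Summed CPM of 6 lists of cell type markers in each of the 6 injured CD31 isolates, on a log10 axis; each point is a library, blue for males and orange for females, with the replicate given by the shape. Proximal tubule sums do not overlap between the sexes, pan-endothelial sums do, and male replicate 2 stands alone for neutrophil markers.

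Male replicate 2 stood apart from the rest. Its log2 CPM correlated at 0.913 and 0.916 with the other males, while those correlated at 0.979 with each other and the 3 females at 0.966 to 0.979 (across genes, which are not independent replicates). Neutrophil marker sums were 13.5, 143 and 15.7 CPM in males 1 to 3 and 13.8, 8.26 and 4.98 CPM in females 1 to 3, so that 1 library sets the male mean; without it the fold between the sexes went from 6.37 to 1.62. Its pan-endothelial sum was the highest of the 6, though single endothelial markers went both ways. The correlations given in the closing section place it nearer to 2 injured male tubule libraries than to the other male isolates. Whether libraries were exchanged was not tested. Results are therefore given with and without male replicate 2 where it bears on them.

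In a fit of the 11 CD31 isolates with edgeR's quasi-likelihood test, 285 of the 19246 autosomal genes differed between injured males and females at an adjusted p under 0.05, which is 1.48%: 125 had their higher level in males (0.649%) and 160 in females (0.831%). Of these genes, 257 code for proteins. In all 285 the 3 male libraries did not overlap with the 3 female libraries, against 24.0% of all genes tested, and the log2 changes ran from 0.88 to 11.30 in size toward males and from 0.91 to 9.91 toward females. Without male replicate 2, 371 genes were called, 243 of them among the 285, and all 285 kept their direction. Leaving out another library lowered the count: to 129 without male replicate 1, 220 without male replicate 3, and 99, 72 and 100 without females 1, 2 and 3. With the proximal tubule marker score of each library as a covariate, 78 genes were called, 50 higher in males and 28 higher in females. Proximal tubule marker levels did not overlap between the sexes in the injured isolates. This fit can therefore hardly tell tubule content from sex, and the drop in calls gives no share due to either.

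The genes described first are the 12 in each direction with the largest log2 change among the called genes that code for proteins. To be taken, a gene also needed no overlap between male and female libraries and a mean of 5 CPM in 1 sex or both. Slco1a1 (chromosome 6, 141907282 to 141946962), an organic anion transporter of the proximal tubule brush border, had 428, 355 and 229 CPM in males 1 to 3 and 0.069, 0.265 and 0.0472 CPM in females 1 to 3. The 3 female libraries held 18 reads of it together, against 51201 in the males, and the fitted log2 change was 11.30 ± 0.70 (edgeR adjusted p = 4.9e-05). Kap (chromosome 6, 133849851 to 133853762) encodes the kidney androgen-regulated protein. Its levels were 6071, 8467 and 3809.9 CPM in males and 48.6, 144 and 89.4 CPM in females, a log2 change of 6.02 ± 0.57 (adjusted p = 0.00072). Each male library lay far above each female library for both genes.

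Acsm3 (chromosome 7, 119760923 to 119787513), which encodes a medium-chain acyl-CoA synthetase, showed the same pattern, with 189, 333 and 171 CPM in males and 0.621, 0.999 and 0.448 CPM in females (log2 change 8.37 ± 0.55, adjusted p = 6.7e-05). Cyp2j13 (chromosome 4, 96027534 to 96077546), of the cytochrome P450 family, had 184, 218 and 192 CPM against 1.08, 0.857 and 0.802 CPM (log2 change 7.76 ± 0.69, adjusted p = 0.00044). Others of these 12 toward males were Pzp, encoding the protease inhibitor pregnancy zone protein (6.01 ± 0.67), Akr1c14, a hydroxysteroid dehydrogenase (5.49 ± 0.49), Cyp2d9 (5.43 ± 0.77), the carboxylesterase Ces1f (5.30 ± 0.45) and the indole methyltransferase Inmt (4.82 ± 0.77; 3.17 without male replicate 2, which had the highest level). Vgf, a gene for a secreted neuropeptide precursor, was low in all libraries, at 7.95, 11.3 and 7.6 CPM in males and 0.299, 0.0204 and 0.0707 CPM in females (6.09 ± 0.89).

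Ptpn22, a phosphatase best known from lymphocytes, and Mfsd2a, a lysolipid transporter, belong to the same 12 but were carried by male replicate 2. Ptpn22 had 4.91, 95.2 and 10.7 CPM in males 1 to 3 and 0.598, 0.816 and 0.684 CPM in females, and Mfsd2a 6.26, 85.3 and 6.54 CPM and 0.921, 0.693 and 0.424 CPM. Their log2 changes were 5.72 and 5.58 with that library and 3.47 and 3.23 without it, with adjusted p values of 0.011 and 0.042 in the latter fit.

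Among the 12 higher in females, Ugt1a2 (chromosome 1, 88200601 to 88218997), a glucuronosyltransferase gene, came first. It had 2007, 1916 and 1503 CPM in females 1 to 3 and 10.1, 1.77 and 7.64 CPM in males 1 to 3, a log2 change of -8.12 ± 0.69 (edgeR adjusted p = 0.00042). Its first exon is one of several that share the remaining exons of the Ugt1a locus, so the reads given to it are uncertain. Atp13a4 (chromosome 16, 29395853 to 29544864), a P5-type ATPase, had 16.6, 16 and 9.1 CPM in females and 0.0349, 0.0671 and 0.127 CPM in males, where the 3 libraries held 11 reads together (log2 change -7.49 ± 0.72, adjusted p = 0.00072). Bhmt (chromosome 13, 93616675 to 93637961), which remethylates homocysteine with betaine, had 87.9, 41.4 and 43.7 CPM in females and 0.821, 1.16 and 1.39 CPM in males (-5.68 ± 0.55, adjusted p = 0.00077). Every female library exceeded every male library for each of these genes by a wide margin.

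Prlr (chromosome 15, 10177238 to 10349180), the prolactin receptor, was the only hormone receptor of the group: 90.5, 112 and 37.1 CPM in females and 4.02, 0.269 and 5.84 CPM in males (-4.56 ± 0.82, adjusted p = 0.021). Also among the 12 were 5 organic anion transporter genes of the Slc22 family: Slc22a27 (-5.58 ± 0.65), Slc22a29 (-5.39 ± 0.57), Slc22a13 (-4.99 ± 0.73), Slc22a19 (-4.78 ± 0.53) and Slc22a26 (-4.49 ± 0.51). The others were Serpina1f, a member of the alpha-1-antitrypsin cluster (-4.86 ± 0.81), Rdh16f2, a retinol dehydrogenase (-4.16 ± 0.42), and Kynu, the kynureninase of tryptophan breakdown (-4.11 ± 0.59). Without male replicate 2, all 12 stayed called, with adjusted p values from 7.5e-05 to 0.029.

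**Figure D2:**
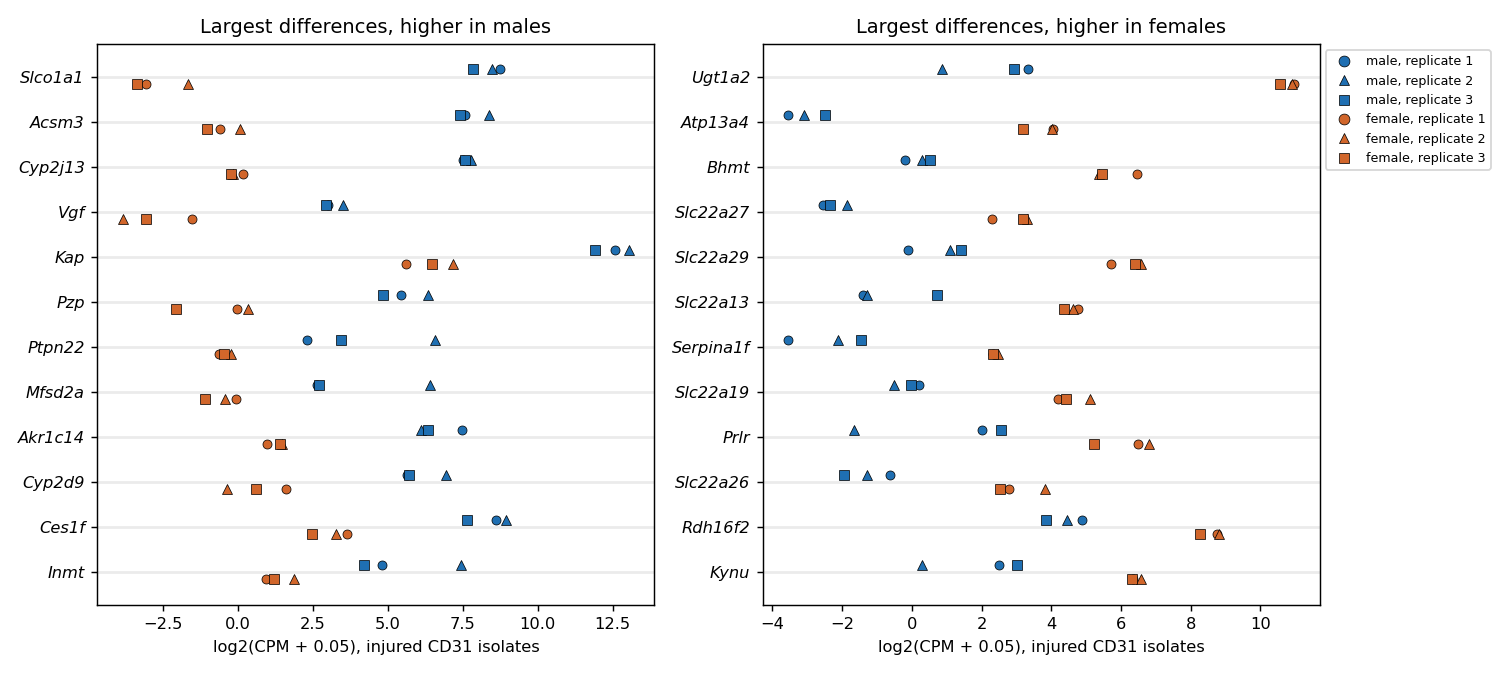
Level of the 12 called protein-coding genes with the largest log2 change in each direction among those whose mean reached 5 CPM in either sex, as log2(CPM + 0.05) in each injured CD31 isolate; points are libraries, blue for males and orange for females, with the replicate given by the shape. Male and female points do not overlap in any row, which the selection required. Male replicate 2 lies far above the other males for Ptpn22, Mfsd2a and Inmt.

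The promoters of these genes were searched for short receptor and hepatocyte factor sequences, to show what the windows before the largest differences hold. RefSeq windows of 300 bases (250 before to 50 after the start, build GRCm38.p6) were at hand for 21 of the 24 genes. The 3 motifs below were sought on both strands: AGAACA, a core of androgen and glucocorticoid receptor elements, GTTAAT, a core of HNF1 elements, and GGTCA, a core of estrogen receptor and other nuclear receptor elements. Matches of different motifs may share bases, though none do in the windows printed. The genes with the largest differences that hold a match are printed, 2 for each direction, with matches in capitals (TGACC is GGTCA and ATTAAC is GTTAAT on the other strand).
Slco1a1, chr6:141946913-141947212, minus strand: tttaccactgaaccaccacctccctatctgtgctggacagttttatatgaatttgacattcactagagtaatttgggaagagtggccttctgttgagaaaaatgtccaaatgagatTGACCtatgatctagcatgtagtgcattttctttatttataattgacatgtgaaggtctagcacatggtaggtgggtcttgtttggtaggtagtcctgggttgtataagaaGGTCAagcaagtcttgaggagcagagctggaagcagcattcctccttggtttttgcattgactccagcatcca
Pzp, chr6:128526671-128526970, minus strand: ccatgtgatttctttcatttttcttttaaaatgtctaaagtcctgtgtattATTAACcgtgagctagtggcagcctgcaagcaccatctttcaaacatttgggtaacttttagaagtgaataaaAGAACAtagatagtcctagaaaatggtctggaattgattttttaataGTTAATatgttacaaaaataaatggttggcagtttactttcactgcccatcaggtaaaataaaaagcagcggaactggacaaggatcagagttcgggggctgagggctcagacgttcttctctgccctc
Ugt1a2, chr1:88200361-88200660, plus strand: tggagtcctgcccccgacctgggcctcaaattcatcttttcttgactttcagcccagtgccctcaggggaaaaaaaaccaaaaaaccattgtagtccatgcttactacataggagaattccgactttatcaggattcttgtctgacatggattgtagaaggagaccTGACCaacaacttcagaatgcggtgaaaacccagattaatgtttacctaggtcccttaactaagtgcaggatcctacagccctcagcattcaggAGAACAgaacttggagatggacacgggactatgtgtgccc
Atp13a4, chr16:29544815-29545114, minus strand, the first of 2 windows: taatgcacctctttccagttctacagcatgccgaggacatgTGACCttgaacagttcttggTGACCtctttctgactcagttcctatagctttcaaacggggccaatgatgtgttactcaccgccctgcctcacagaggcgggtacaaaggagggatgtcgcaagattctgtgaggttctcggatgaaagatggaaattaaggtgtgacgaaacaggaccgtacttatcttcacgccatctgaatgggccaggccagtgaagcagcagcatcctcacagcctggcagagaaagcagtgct
The Slco1a1 window holds GGTCA 2 times, the Pzp window AGAACA once and GTTAAT 2 times, the Ugt1a2 window AGAACA once and GGTCA once, and the Atp13a4 window GGTCA 2 times. No match was found in the windows of Acsm3, Cyp2j13 and Kap, which says only that these letters are not in those 300 bases. Over all windows of called protein-coding genes, AGAACA was in 11.8% of 110 windows of genes higher in males and 26.4% of 140 windows of genes higher in females, against 19% of the 31396 autosomal windows in the table. GTTAAT was in 6.36%, 17.9% and 7.12%, and GGTCA in 40.9%, 47.1% and 40.7% in the same order. The complete palindrome of AGAACA and its reverse complement, 3 bases apart, was in none of the windows of called genes and in 3 of all windows. These shares are descriptions, and a match is not a binding site.

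In several gene clusters, singled out after their values were known, members were called in opposite directions. In the Slc22a cluster on chromosome 19, 5 of the 9 tested genes were higher in females and Slc22a30 was higher in males, at means of 68 against 6.25 CPM (3.44 ± 0.49, adjusted p = 0.007). Slc22a8 of that cluster, which encodes the anion transporter OAT3, was higher in females (-2.20 ± 0.27, adjusted p = 0.0037), while Slc22a6, encoding OAT1, had means of 919.5 CPM in males and 960.5 CPM in females (-0.06 ± 0.35, adjusted p = 0.95). In the Cyp2d cluster on chromosome 15, Cyp2d9 was higher in males, while Cyp2d26 (-3.65 ± 0.38), Cyp2d22 (-1.74 ± 0.22) and Cyp2d12 (-3.17 ± 0.61) were higher in females. The Cyp2j cluster on chromosome 4 held Cyp2j13 beside Cyp2j11 (-2.52 ± 0.32), which was higher in females, and 4 tested genes that did not pass. Likewise Ces1f was higher in males and its neighbour Ces1d higher in females (-2.61 ± 0.25), and Akr1c14 was higher in males with Akr1c19 (-1.62 ± 0.28) and Akr1c20 (-3.71 ± 0.65) higher in females. The Slco1a cluster on chromosome 6 had no such split: 2 of 3 tested genes were higher in males and none was higher in females. These families hold near-identical members, and the share of reads given to each is uncertain.

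Lists of transport and drug metabolism are read against the 0.649% and 0.831% of all tested genes that were called higher in males and in females. Of 23 tested organic ion transporters, 4 were higher in males and 5 higher in females, and the list's median log2 change was -0.65 against 0.02 over all genes tested. Cytochrome P450 genes were split likewise, with 4 of 24 higher in males and 5 higher in females (6 toward males and 5 toward females without male replicate 2). Cyp2e1, an ethanol- and xenobiotic-oxidizing enzyme, had 607, 1013 and 850.3 CPM in males and 112, 81.6 and 104 CPM in females (3.05 ± 0.34, adjusted p = 0.0017). Cyp51, of cholesterol synthesis, was higher in females (-1.91 ± 0.34, adjusted p = 0.021). Of 21 amino acid transporters, Slc7a13, a cystine and aspartate carrier of the late proximal tubule, and Slc7a11, the cystine-glutamate exchanger, were higher in males, and Slc6a20b was higher in females (-1.50 ± 0.32, adjusted p = 0.048; 0.09 without male replicate 2).

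The next lists are read against the same 0.649% and 0.831% of all tested genes called higher in males and in females. A list of kidney genes known as male-biased, drawn up with earlier results of these data known and therefore no independent evidence, had 12 of 29 tested members higher in males and 2 higher in females. The 2 were Serpina1f and Hao2, a peroxisomal hydroxy acid oxidase (-3.10 ± 0.45, adjusted p = 0.0078). Its female-biased counterpart, drawn up in the same way, had 8 of 20 members higher in females and 2 higher in males. These became 9 and 5 without male replicate 2, with Hdc (log2 change -4.03) added toward females and Cyp2a4 (2.92), Abcc3 (1.65) and Cyp2a5 (3.16) toward males, named after their values were seen. The 2 with all libraries were Akr1c14, with 179.8, 69.2 and 80.9 CPM in males and 1.93, 2.73 and 2.64 CPM in females, and the organic anion transporter Slco1a6 (1.54 ± 0.30, adjusted p = 0.029). Among 16 receptors and enzymes of steroid, prolactin and growth hormone signaling, Prlr was higher in females and Hsd11b1, which makes active glucocorticoid, was higher in males (32.3, 37.8 and 12.8 against 2.39, 3.47 and 2.95 CPM; 3.23 ± 0.60, adjusted p = 0.023).

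Of the 26 proximal tubule markers, Miox, the inositol oxygenase (-2.32 ± 0.35, adjusted p = 0.0094), Slc34a1 (-1.43 ± 0.29, adjusted p = 0.037) and the water channel Aqp1 (-0.94 ± 0.19, adjusted p = 0.035) were lower in males. Slc34a1 had 1254, 2239 and 1478 CPM in males and 3706, 4969.9 and 4702 CPM in females, and the groups do not overlap. Lrp2, the endocytic receptor megalin, had 929, 614 and 1131 CPM in males and 2219, 3436 and 1219 CPM in females and did not pass (-1.36 ± 0.39, adjusted p = 0.14). Its partner Cubn did not pass either (-1.45 ± 0.41, adjusted p = 0.13). Without male replicate 2, Aqp1 missed the threshold (adjusted p = 0.063). Of 25 fatty acid oxidation genes 1 was called, Acaa2, a mitochondrial thiolase lower in males (-1.56 ± 0.26, adjusted p = 0.017). For this list and the tubule markers, the share of all tested genes called lower in males was 0.831%. In 24 of the 25 fatty acid oxidation genes the log2 change was negative, and the list's median was -0.43.

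Genes of tubular injury, antioxidant defence and the integrated stress response were higher in injured males where they were called, and none was higher in females. In the tubular injury list 4 of 26 genes were called (6 without male replicate 2), against 0.649% of all tested genes called higher in males. Lcn2 (chromosome 2, 32384633 to 32388252), encoding the secreted lipocalin used as an injury marker, had 241, 819 and 403 CPM in males and 41.9, 6.97 and 55 CPM in females (3.82 ± 0.72, adjusted p = 0.026). All males lay above all females, with male replicate 2 highest; the change was 3.22 without it (adjusted p = 0.043). The other 3 were Krt8, a simple-epithelial keratin (1.78 ± 0.35), Lgals3, encoding galectin-3 (1.40 ± 0.26), and Cyr61, a matricellular protein gene (1.48 ± 0.30), with 23 of the 26 members positive and a median of 1.47.

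Havcr1 (chromosome 11, 46735080 to 46779578), encoding the injury marker KIM-1, behaved unlike Lcn2 in male replicate 2. It had 299.6, 4.9 and 239 CPM in males 1 to 3 and 49.7, 6.69 and 25 CPM in females 1 to 3, so the groups overlap and it did not pass (2.74 ± 1.10, adjusted p = 0.28). Without male replicate 2 its change was 3.31 with an adjusted p of 0.045. That library was the lowest of the 6 for Havcr1 and the highest for Lcn2, Krt8 and Krt20.

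NRF2 targets and iron-handling genes had 7 of 24 tested members higher in males (7 also without male replicate 2), against 0.649% of all tested genes. Hmox1, heme oxygenase 1, had 72, 128 and 76 CPM in males and 18.9, 13.3 and 20.5 CPM in females (2.39 ± 0.38, adjusted p = 0.012). Srxn1, which restores peroxiredoxins, had 250.0, 164 and 143 CPM against 70.1, 52.1 and 76.5 CPM (1.49 ± 0.26, adjusted p = 0.019). Slc7a11 had 8.39, 25.1 and 3.69 CPM against 0.782, 0.673 and 0.589 CPM (4.18 ± 0.65, adjusted p = 0.011; 3.14 without male replicate 2). These genes were higher in each male than in each female, with male replicate 2 highest for Hmox1 and Slc7a11 but not for Srxn1. The metallothionein gene Mt2, whose product binds zinc and copper, was at 259, 1256 and 237 CPM against 50.5, 28.5 and 55.4 CPM, a log2 change of 3.70 with and 2.47 without male replicate 2. Mt1 (2.87 ± 0.60), the thioredoxin reductase gene Txnrd1 (1.12 ± 0.23) and Gclc, of glutathione synthesis (1.56 ± 0.34), completed the called members. The list's median was 0.31, with 8 members negative, among them Gpx3 (-0.90) and Cat (-0.65), which did not pass.

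In the integrated stress and unfolded protein response list 3 of 21 gene records were called, all higher in males (Ddit3 counts with 2 records). Of all tested genes, 0.649% were called higher in males. Without male replicate 2 the transcription factor gene Atf5 was added toward males and Herpud1, of protein disposal from the endoplasmic reticulum, toward females (log2 change -0.95, adjusted p = 0.030); both are named after their values were seen. Asns, asparagine synthetase, had 44.2, 15.5 and 20.3 CPM in males and 2.88, 2.73 and 5.59 CPM in females (2.84 ± 0.45, adjusted p = 0.012). Trib3, a pseudokinase induced by ATF4, had 15.5, 20.7 and 4.35 CPM against 0.805, 0.591 and 1.08 CPM (4.03 ± 0.64, adjusted p = 0.013), and the mitochondrial folate enzyme Mthfd2 30.3, 13.5 and 18.2 CPM against 3.64, 4.12 and 6.46 CPM (2.13 ± 0.36, adjusted p = 0.017). Other list members linked to amino acid supply did not pass: Psat1 (1.06) and Phgdh (1.19) of serine synthesis, Chac1 (1.59), Shmt2 (-0.46) and Atf4 (1.12) itself. The endoplasmic reticulum chaperones on the list, Hspa5 (0.01), Hyou1 (-0.28) and Pdia4 (-0.50), did not pass.

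**Figure D3:**
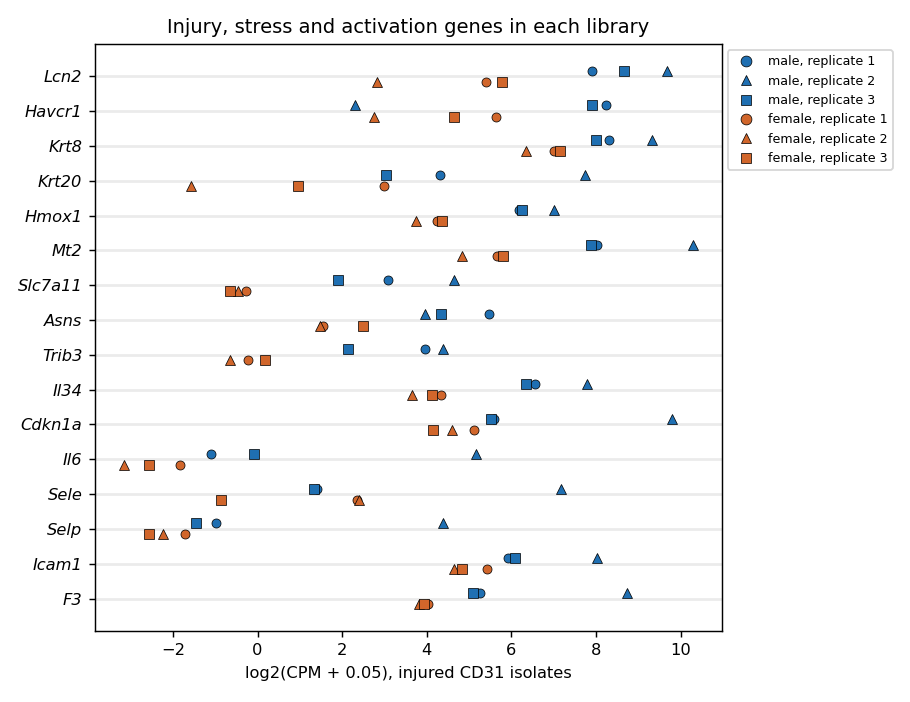
Level of 16 injury, stress and activation genes as log2(CPM + 0.05) in each injured CD31 isolate; points are libraries, blue for males and orange for females, with the replicate given by the shape. Lcn2, Hmox1, Mt2, Slc7a11, Asns and Trib3 are higher in all males than in all females, while Cdkn1a, Il6, Sele, Selp and F3 are by far highest in male replicate 2.

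None of the 25 pan-endothelial markers passed, which with 1.48% of all genes called is near the background, with 14 positive and 11 negative log2 changes and a median of 0.02, the same as over all genes tested. Pecam1 had 107, 177 and 140.4 CPM in males and 143, 169.9 and 106 CPM in females (0.02 ± 0.44). Kdr, the main VEGF receptor, had 129.7, 195 and 152 CPM in males and 291, 351 and 87 CPM in females (-0.61 ± 0.61), and Cdh5, encoding VE-cadherin, 63.8, 264 and 103 CPM and 98.3, 129 and 62 CPM (0.57 ± 0.64). All 3 overlapped between the sexes, with adjusted p values of 0.99, 0.69 and 0.72. The same was true of the angiopoietin receptor Tek (-0.90 ± 0.58), the sialomucin Emcn (0.14 ± 0.56), the glomerular Ehd3 (-1.01 ± 0.64), the fenestral diaphragm gene Plvap (-0.16 ± 0.80) and Vwf, encoding von Willebrand factor (0.58 ± 0.73). The SEs of these 8 changes were 0.44 to 0.80, so the comparison was imprecise for each of them.

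Several activation genes were high in male replicate 2 alone. Sele, encoding E-selectin, had 2.6, 145 and 2.49 CPM in males 1 to 3 and 5.04, 5.22 and 0.495 CPM in females, and Selp, encoding P-selectin, 0.454, 20.7 and 0.316 CPM and 0.253, 0.163 and 0.118 CPM. In both, only male replicate 2 was high; the Sele log2 change was 3.80 with it and -0.49 without it, and neither passed (adjusted p = 0.25 and 0.15). F3, the gene of tissue factor, which starts coagulation, had 38.2, 423 and 34 CPM in males and 16.2, 13.9 and 15.1 CPM in females; it passed only without male replicate 2 (log2 change 1.26, adjusted p = 0.048; with it 3.45 ± 0.85, adjusted p = 0.081). Icam1 was at 60.9, 259 and 68 CPM against 42.8, 25 and 28.4 CPM and did not pass (2.01 ± 0.51, adjusted p = 0.09). Vcam1 overlapped between the sexes (-0.02 ± 0.63), as did the shear stress factors Klf2 (0.50 ± 0.63) and Klf4 (0.26 ± 0.65), the endothelin gene Edn1 did not pass (1.71 ± 0.66), and Nos3, the endothelial nitric oxide synthase gene, did not pass (1.15 ± 0.66).

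Within the vascular lists, 1 of 15 adhesion and activation genes was called, Ly6e, a membrane protein gene also induced by interferon (492, 569 and 372 CPM in males, 164, 146 and 218 CPM in females; 1.44 ± 0.26, adjusted p = 0.022). Of 29 vascular tone genes, Arg2, the mitochondrial arginase that competes with nitric oxide synthase for arginine, was higher in males (25.7, 66.1 and 26.1 CPM against 10.5, 5.61 and 7.83 CPM; 2.30 ± 0.41, adjusted p = 0.021; 1.70 without male replicate 2). Of 22 BMP and TGF-beta genes, the type I receptor gene Tgfbr1 was higher in males (1.13 ± 0.23, adjusted p = 0.033). None of 27 VEGF, angiopoietin and Notch genes, 19 coagulation genes, 14 shear stress factors or 28 extracellular matrix genes was called, which is near the background of 1.48%. In the chemokine and NF-kB list all 27 tested members were positive, with a median of 1.57, but only Il34, a ligand of the CSF1 receptor, was called (94.4, 219.5 and 80.8 CPM against 20, 12.5 and 17.5 CPM; 2.98 ± 0.40, adjusted p = 0.0055; 2.40 without male replicate 2). Without male replicate 2 the median of that list was 0.89, and the summed macrophage markers given above were higher in males; the part of these cells in the result was not tested.

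Of the peritubular capillary list, 2 of 9 members were called, in opposite directions, against 1.48% of all tested genes called either way. Cd36 (chromosome 5, 17781690 to 17888801), a fatty acid receptor of capillary endothelium that tubule cells also make, had 647, 289 and 670.2 CPM in males and 55.7, 31.1 and 32.3 CPM in females (3.75 ± 0.48, adjusted p = 0.004). It was also called in sham isolates (4.98 ± 0.61, adjusted p = 0.0039) and in injured tubules (3.96 ± 0.47, adjusted p = 4e-05). Car4 (chromosome 11, 84957786 to 84966044), a membrane-bound carbonic anhydrase of capillaries and tubules, had 54.2, 77 and 54.4 CPM in males and 173, 185 and 168 CPM in females (-1.50 ± 0.29, adjusted p = 0.029). For Car4 the sham isolates (290.1, 251 and 126 CPM in males, 171 and 173 CPM in females) and the injured tubules (-0.31 ± 0.28, adjusted p = 0.49) showed no called difference.

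**Figure D4:**
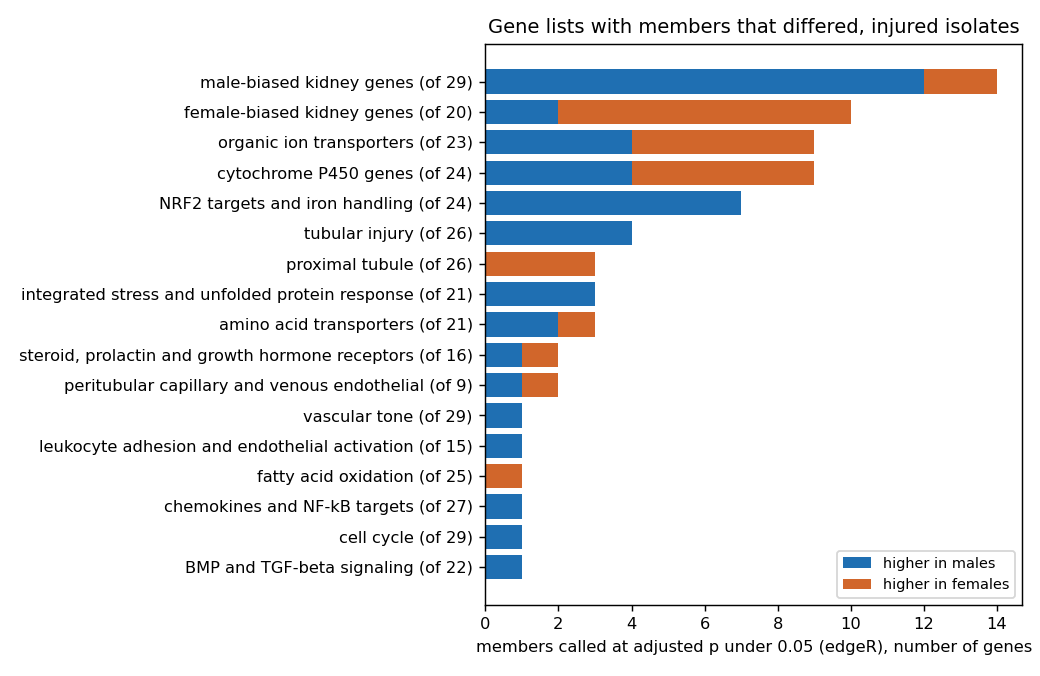
Number of members called at an adjusted p under 0.05 in the 17 gene lists with at least 1 called member, with the number tested in brackets; blue bars count members higher in males and orange bars members higher in females. Organic ion transporters and cytochrome P450 genes are split between the sexes, and NRF2 targets, tubular injury and stress response genes are called only toward males.

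To see where endothelial RNA prevails, genes were taken that stood higher in sham CD31 isolates than in sham tubules, a definition made after seeing the data and using none of the injured libraries. Of 1812 such genes (log2 difference of at least 1), 11 were called between injured males and females, which is 0.607% against 1.48% of all genes. With a log2 difference of at least 2 the count was 3 of 1080 (0.278%). Genes that stood higher in sham tubules by the first definition were called in 16 of 81 cases. The set of genes that stood higher in sham isolates is not endothelial alone: Umod of the thick ascending limb belongs to it. The sham isolates used for these definitions were of unequal composition, as given below.

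Of the 11, 7 were higher in males, among them Anxa3, an annexin (74.6, 66.9 and 63.8 CPM against 20.2, 16 and 19.3 CPM in females; 1.89 ± 0.29, adjusted p = 0.011), Lrg1, a secreted glycoprotein of activated vessels (32.4, 105 and 82.9 CPM against 15.3, 7.32 and 10.1 CPM; 2.75 ± 0.46, adjusted p = 0.017), and Lgals3, Cdh3 and Kctd1. Cdh3, encoding P-cadherin (1.22 ± 0.23), is an epithelial gene by what is known of it. Kctd1, a transcriptional regulator, had 81.2, 54.6 and 67.8 CPM in males and 31.1, 27.1 and 33.2 CPM in females (1.15 ± 0.21, adjusted p = 0.022). The 4 higher in females were Gm45650, Cdkl4, 1110019B22Rik and Gm13111, with log2 changes from -3.10 to -1.23 and levels of at most 30.1 CPM.

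The sham isolates gave 80 called autosomal genes (0.416%), 51 toward males and 29 toward females. That count was 20 without sham female replicate 2, 21 without sham female replicate 1, 31 and 37 without sham males 2 and 1, 207 without sham male replicate 3 and 203 without injured male replicate 2. The sham isolates were of unequal composition. Their pan-endothelial sums were 690, 716 and 2657 CPM in sham males 1 to 3 and 2846 and 1311 CPM in sham females 1 and 2. Proximal tubule sums were 36218.5, 39038 and 19617 CPM in these males and 29158 and 41545 CPM in these females. The sham comparison and the interaction below rest on these libraries. Genes called in both states numbered 61, which is 76.2% of the sham calls and 21.4% of the injured calls, and none changed direction. The difference itself was tested as an interaction, male minus female after injury against male minus female after sham surgery. No gene was called by edgeR (1256 had an unadjusted p under 0.05, the smallest adjusted p was 0.45, and DESeq2 called 60); without male replicate 2, 1 gene was called. The genes called in injured isolates but not in sham isolates are therefore not shown to differ between the states.

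The genes with the smallest p in that test are given as values. Slc7a11 stood at 0.336, 0.622 and 0.687 CPM in sham males and 0.919 and 1.03 CPM in sham females, with an interaction of 5.00 ± 0.90 (unadjusted p = 0.00017, edgeR adjusted p = 0.66). Trib3 stood at 0.336, 0.259 and 0.916 CPM and 0.852 and 0.66 CPM, with 4.61 ± 0.90 (unadjusted p = 0.00034, edgeR adjusted p = 0.66). Both were thus low in sham mice of either sex. Hsd17b6, a retinol and sex steroid dehydrogenase, had no read in the 3 injured males and 2.32, 4.63 and 0.92 CPM in the injured females, where it was at least 131-fold higher (floor of 3 counts over the male group). In sham mice it stood at 1.68, 0.804 and 2.06 CPM in males and 5.66 and 4.74 CPM in females. Kap, by contrast, differed in sham isolates by 8.30 ± 0.76 and in injured isolates by 6.02, with 18364, 17057 and 8071 CPM in sham males and 60.1 and 31.9 CPM in sham females. The Kap interaction of -2.28 ± 0.71 did not pass either (edgeR adjusted p = 0.74).

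The injured tubules gave 3398 called autosomal genes of 20497 tested (16.6%), 1967 toward males (9.6%) and 1431 toward females (6.98%). Leaving out 1 tubule library gave 1377 to 1884 calls, except for 6374 without male tubule replicate 3. Of the 125 genes higher in male CD31 isolates, 116 were called in the same direction in tubules, and of the 160 higher in females, 147 were; none was called in the opposite direction. Of the 285 genes, 72.6% had a higher mean CPM in injured tubules than in the injured isolates, against 49.3% of all genes. A test of the difference between the preparations called no gene with edgeR (755 with an unadjusted p under 0.05; DESeq2 called 7). Library numbers in the titles recur between isolates and tubules, and whether the same number means the same mouse is not given in the sources used here.

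For single genes, Slco1a1 stood at 668, 669 and 268 CPM in male tubules and 0.235, 0.115 and 3.72 CPM in female tubules, and Ugt1a2 at 3.78, 4.98 and 7.99 CPM and 1406, 1258 and 1692 CPM. Both therefore differed in tubules in the direction seen in the isolates. The gene with the smallest p of the difference between preparations among those the naming rule takes was Ipcef1, with 3.86, 6.11 and 5.34 CPM in male isolates, 7.36, 10.5 and 10.1 CPM in female isolates and a log2 change of -2.64 ± 0.27 in tubules (difference 1.75 ± 0.37, unadjusted p = 0.00014, edgeR adjusted p = 1). Kctd1 was called in isolates and had a tubule change of -0.09 ± 0.19 (difference 1.23 ± 0.27, unadjusted p = 0.00019, edgeR adjusted p = 1). Neither difference passed the adjustment.

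**Figure D5:**
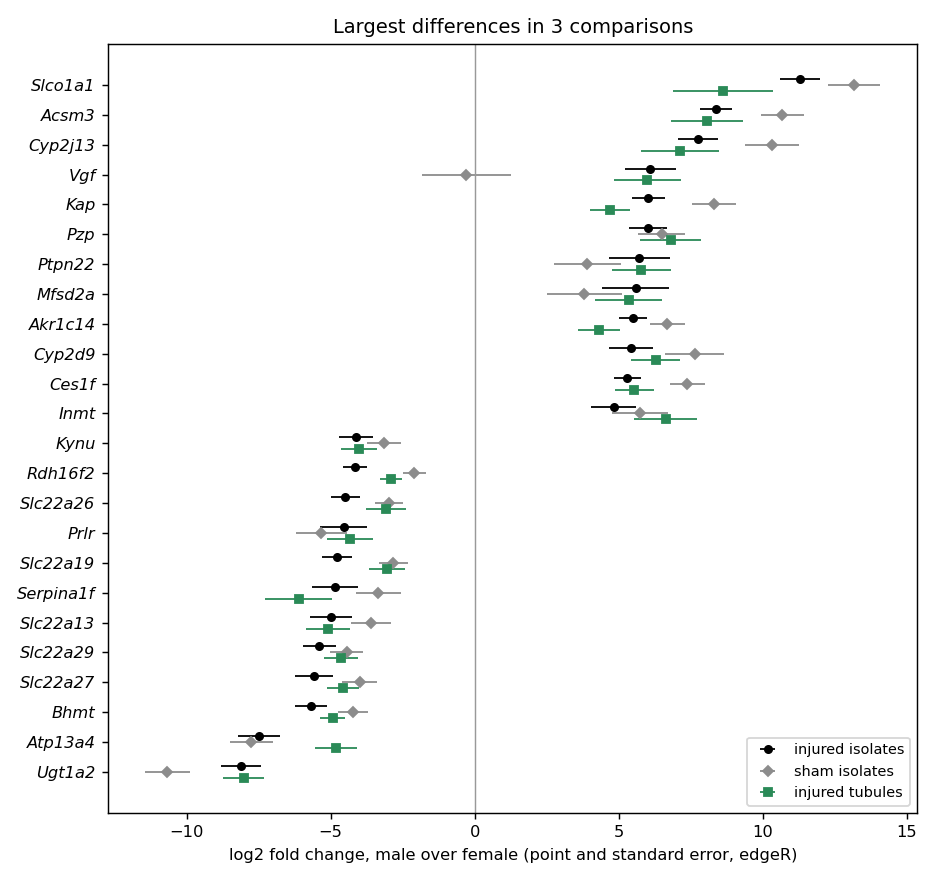
Log2 change of males over females for the 24 genes with the largest differences in injured CD31 isolates (black), in sham isolates (grey) and in injured tubules (green); points are edgeR estimates and bars their SE. The 3 comparisons lie on the same side of 0 for all genes except Vgf, whose sham estimate is near 0.

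For the same groups, the authors' deposited table lists 1010 autosomal genes at an adjusted p under 0.05, 526 higher in males and 484 higher in females. Of the 285 genes called here, 278 are called in the authors' deposited table too, none in the opposite direction. Slco1a1 has a log2 fold change of 11.35 and Ugt1a2 one of -8.01 in the authors' deposited table.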

How the data were processed

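The authors ran Salmon 0.13.1 on GRCm38 transcripts, per the submitters' processing notes; the deposited estimated counts and TPM values of each transcript are not normalized between libraries. Reads are poly-A selected, per the labels. The authors' deposited comparison table gives log2 fold changes, errors and adjusted p-values, made with DESeq2, per the submitters' processing notes, version not given in the sources used here. NumReads of all transcripts of a gene were added up and rounded to whole numbers. The fit of the 11 CD31 isolates used edgeR 4.0.16 under R 4.3.3 (normalization by TMM, filterByExpr with minimum count 10 and minimum total 15, 1 mean per group, quasi-likelihood test, 7 residual degrees of freedom), and all 23 libraries for tubule values (15 degrees of freedom; 2 runs of 1 sham male tubule sample summed). Benjamini-Hochberg adjustment ran over every tested gene (19910 and 21206). An SE is the absolute log2 change over the square root of F; log2 changes are of males over females. CPM are counts scaled to the TMM-normalized library; 3 counts equal 0.0524 to 0.0707 CPM in the 6 injured isolates, which covers counting error only. Coordinates are those of GENCODE M21. Library pairs of a group differed by a chi-square per degree of freedom of 55.5 or more, so none was counted as a copy.

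Members, gene lists, marker lists and tests were chosen with earlier results of these data known. Named are the 12 largest called differences in each direction among genes that code for proteins, do not overlap between the sexes and reach a mean of 5 CPM, up to 4 members of each described list with the smallest adjusted p, 3 genes of each interaction, 22 fixed genes and the called genes that stand higher in sham isolates than in sham tubules; Krt20, Cdkn1a, Il6, S100a8 and the clustered gene families were chosen after their values were seen, as were further called members of lists. Some genes that these rules take are not reported here. Of the 26 pathway and 17 marker lists, the counts stand in the report or, with 0 members called, in the last part.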

Additional observations from a re-analysis of the deposited data

How the results depend on the processing

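The 285 calls became 798 with no low-count filter, 1130 with the DESeq2 Wald test, 126 with a replicate block, 78 with the proximal tubule marker score as a covariate and 124 with only the 6 libraries compared; chosen after seeing the data were the pan-endothelial score as a covariate (762) and a fit of both isolations (739). Leaving out each library gave 72 (without female replicate 2) to 371 (without male replicate 2) calls. RLE normalization and length offsets stayed within 1.5 times. For sham isolates, the 80 calls became 240 with no filter, 368 with DESeq2, 52 with a replicate block, 212 with the tubule score, and 20 to 207 without 1 library. For the difference between injured and sham isolates, 42 genes were called with no filter and 60 with DESeq2, and 0 to 1 without 1 library. For injured tubules, the 3398 calls became 1650 with only the groups compared and 1377 to 6374 without 1 library, the highest without injured male tubule replicate 3. For the difference between isolates and tubules, DESeq2 called 7 genes. The 17 lists with a called member became 28 with no filter and 7 to 20 without 1 library. Same-numbered male and female libraries had correlations of their deviations of -0.103, 0.138 and 0.152, and differently numbered ones had -0.209 to 0.179. With 3 libraries per sex, these values cannot tell whether same-numbered libraries share a batch.

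Of the 64 called genes that the naming rules take, none changed direction under any alternative; 48 missed the threshold with the tubule score, 26 with the block, 32 with only the groups compared and 5 without male replicate 2. Among genes that were not called, signs turned as follows. With the tubule score these were Tnfrsf1a (-0.16), Cdkn1a (-0.91), Vwf (-1.56), Klf4 (-2.17), Pecam1 (-1.52), Edn1 (-0.97), Sele (-1.84), Nos3 (-1.60), Umod (-0.83), Cdh5 (-1.94), Emcn (-2.19), Klf2 (-2.10), Il6 (-2.69), Krt20 (-1.39) and S100a8 (-0.27). The block turned Pecam1 (-0.01), Vcam1 (0.02) and Plvap (0.03), and the fit of both isolations Pecam1 (-0.01). Vcam1 also turned with RLE (0.04), length offsets (0.54), DESeq2 (0.04) and only the groups compared (0.02). Leaving out each library in turn gave ranges across 0 for Klf4 (-0.22 to 0.56), Pecam1 (-0.18 to 0.18), Sele (-0.49 to 4.36), Vcam1 (-0.45 to 0.36), Umod (-0.13 to 0.22), Cdh5 (-0.21 to 0.93), Plvap (-0.43 to 0.39), Emcn (-0.61 to 0.41) and Klf2 (-0.33 to 0.82). The cause was not tested, and the tubule score itself differed between the sexes in the injured isolates.

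No member was called in the glomerular, arterial and lymphatic endothelial lists, nor in those of the thick ascending limb and distal tubule, collecting duct, podocyte, mural, fibroblast, neutrophil, platelet, lymphocyte, erythroid and mast cells, nor in those of interferon, MHC class II, respiration, glycolysis, p53 targets, heat shock and clock genes; Mcm4 was the only cell cycle gene called (1.10 ± 0.21, edgeR adjusted p = 0.027).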

Other observations

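Genes of antigen presentation and of a vascular chemokine add to the values above. Of 8 MHC class II genes none was called. In 5 of them all males lay above all females, where 24.0% of all genes tested did not overlap in one direction or the other. The other 3 had log2 changes of -0.52 to -0.01. The median was 1.45 with all libraries and 0.79 without male replicate 2. H2-Ab1, encoding a class II beta chain, stood at 32.9, 75.1 and 18.8 CPM in males and 10.9, 10.9 and 16.3 CPM in females (1.73 ± 0.50, edgeR adjusted p = 0.14). The chemokine gene Cxcl12, a marker of arterial endothelium that other kidney cells also make, stood lower in males, at 113, 47.3 and 101 CPM against 249, 241 and 207 CPM (-1.41 ± 0.33, edgeR adjusted p = 0.067). Neither passed the threshold. Their libraries did not overlap, which was so for 24.0% of all genes tested.

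The injured male libraries fall into a split that their title numbers do not follow. Over 13621 autosomal genes (log2 of CPM + 2), male isolate replicate 2 correlated at 0.956 and 0.939 with injured male tubules 1 and 2 and at 0.835 with tubule 3. Isolates 1 and 3 correlated at 0.967 and 0.967 with tubule 3, and at 0.899 to 0.916 with tubules 1 and 2. Isolate 2 correlated at only 0.874 and 0.882 with isolates 1 and 3, so it lay nearer to 2 tubule libraries than to its own group. Title numbers are 3, 4 and 7 in both preparations, so the isolate and the tubule library numbered 3 lie on different sides. The same split shows in some single genes but not in all. Cdkn1a, the p21 gene, stood at 48.5, 888 and 45.6 CPM in male isolates 1 to 3 and 688, 613 and 24.9 CPM in male tubules 1 to 3. Krt20, a keratin of injured tubules, stood at 19.9, 213 and 8.14 CPM in male isolates and 564, 591 and 12.4 CPM in male tubules. Il6 stood at 0.419, 35.9 and 0.886 CPM in male isolates. Trib3 followed the split in male tubules 1 to 3, at 39.4, 40.7 and 1.51 CPM. In the isolates it did not, since replicate 1 lay nearer to replicate 2 than to replicate 3. Havcr1 did not follow it either, at 135, 1.31 and 105 TPM in male isolates and 10.4, 94.4 and 137 TPM in male tubules. The pan-endothelial sum of isolate 2, 2337 CPM, was the highest of the 6 isolates, and on the scale shared with the tubules the isolates lay above the injured tubules for these markers. Single endothelial markers of isolate 2 went both ways. It was the highest of the 6 for Cdh5 (33.1 TPM) and Emcn (121 TPM), and the lowest for Tek (3.81 TPM) and Ehd3 (7.06 TPM). Its glomerular endothelial sum was 5065 CPM, against 836 to 1483 CPM in the other isolates. Whether libraries were exchanged or the mice differed in injury was not tested, and values of the male groups are given as labelled.

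The share of GTTAAT in windows of genes higher in females (17.9% of 140) against 7.12% of all autosomal windows was seen in windows of genes that are not independent, since gene clusters share sequence. It is given as a description without a test.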
